A study of Homo sapiens with 6 samples.

Results

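The transcription factors of the E2F family and their partners RBL1 and RBL2, the pocket proteins p107 and p130, are described here in bulk RNA-seq of 1CT and 1CT-A cells. The 10 genes are E2F1 to E2F8, RBL1 and RBL2. They are picked by symbol from the 24462 symbols of the count files, with earlier results of these data known. Each of them is entered once in every file. 1CT is a line of immortalized human colonic epithelial cells (HCEC, wild type for APC in the labels), and 1CT-A is its version with wild type APC depleted, labelled APC KD. There are 3 libraries of each, from untreated cells in a shared medium with EGF, hydrocortisone, insulin, transferrin, sodium selenite and FBS. The 1CT line carries introduced hTERT, and it is known to have been made with introduced CDK4 as well, a kinase that phosphorylates pocket proteins, so that both cell lines share this background. Neither the labels nor the methods describe a control vector in 1CT, the way in which APC was depleted in 1CT-A, or whether 1CT-A is a single clone. They also do not say that the libraries of a cell line come from separate cultures, so p-values measure the spread between these libraries, which may be technical.

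E2F proteins bind promoters of genes for DNA replication and cell cycle progression. E2F1, E2F2 and E2F3 are known as activators, E2F4 and E2F5 act mainly as repressors together with pocket proteins, E2F6 represses through a Polycomb-like complex without pocket proteins, and the atypical E2F7 and E2F8 repress without a DP partner. Pocket proteins hold E2F proteins in repressive complexes in resting cells until cyclin-dependent kinases phosphorylate them. Several E2F genes are known E2F targets, and in normal gut epithelium this program is confined to the dividing cells of the crypt. In bulk RNA, more cells that express a gene and more RNA of that gene per cell cannot be told apart.

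The total is 7788679 to 8452258 counts in the 1CT libraries and 11158108 to 12602988 in the 1CT-A libraries, which are 1.43 times deeper on average. Levels are given as CPM, the counts of a gene per 1000000 counts of its library, and the labels describe 3′ end libraries (QuantSeq), in which a transcript gives about the same number of reads whatever its length, so that genes are compared without division by length. APC, the depleted gene, has 417, 363 and 363 counts in 1CT and 351, 342 and 433 in 1CT-A. This is 46.6 ± 2.75 CPM (SD, n = 3) against 31.9 ± 2.21 CPM (SD, n = 3), with a log2 fold change of -0.58 ± 0.09 (standard error, SE, edgeR adjusted p = 0.000176). The label of colonic epithelium is only weakly visible in the RNA. EPCAM, CDX1, VIL1 and MUC2, which mark colon epithelium, have no count in any library, and CDH1 has at most 4. The summed level of the 11 epithelial markers is 13.4 to 17.4 CPM in 1CT against 3.23 to 7.28 CPM in 1CT-A, most of it from KRT18, and KRT19 has 20, 27 and 34 counts in 1CT and none in 1CT-A. All 8 stromal markers, among them COL3A1, DCN, PDGFRB and THY1, have more than 3 counts in every library, with sums of 3066 to 3794 CPM (1CT) and 2756 to 2956 CPM (1CT-A). They do not move together, since COL3A1 has a log2 fold change of 2.37 and DCN of 0.30, while COL1A1 has -0.59, PDGFRB -0.98 and THY1 -0.91. Of the other markers, the 5 immune genes sum to 8.97 to 15.1 CPM, nearly all from CD68, with PTPRC and CD3E at 0. The 4 endothelial genes, PECAM1, CDH5, VWF and KDR, sum to at most 0.514 CPM. The part of these marker differences in the results below was not tested.

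The promoters of the members show which of them carry the letters that E2F proteins bind. In RefSeq (GRCh38.p14, 300 bases per gene, from 250 bases before to 50 after the start), 8 of the 10 members have an entry, and E2F5 and E2F8 have none. The letters searched on both strands are TTTCCCGC, TTTGGCGC, TTTCGCGC and TTTGCCGC. They occur in 4 of these 8 promoters, those of E2F1, E2F2, E2F3 and RBL1, and are not in the windows of E2F4, E2F6, E2F7 and RBL2. Over all 27305 promoters of the table, 3.33% hold at least 1 match and 0.154% hold more than 1, while E2F1 and RBL1 have 2 each. The stretches around the matches are shown for all 4 of these genes. They are higher in 1CT-A, as described below, but so are E2F4 and E2F6, which have no match. The stretches run 5′ to 3′ on the strand of the gene, all before the start of transcription, with the matches in capitals.
E2F1, chr20:33686386-33686438, minus strand: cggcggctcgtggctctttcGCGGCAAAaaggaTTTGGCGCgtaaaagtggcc
RBL1, chr20:37095998-37096043, minus strand: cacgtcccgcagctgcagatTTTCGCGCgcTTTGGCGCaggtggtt
E2F2, chr1:23531248-23531295, minus strand: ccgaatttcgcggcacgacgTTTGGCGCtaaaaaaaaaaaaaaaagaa
E2F3, chr6:20401806-20401853, plus strand: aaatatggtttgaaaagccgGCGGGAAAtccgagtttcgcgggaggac

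In E2F1 and RBL1 the matches lie close together, at positions -33 and -20 of E2F1 and -26 and -16 of RBL1, counted from the start to the match's left end. The single matches of E2F2 and E2F3 begin at -42 and -53. No match overlaps another. A match describes letters and not a bound site. Among the 9331 genes tested below that have a promoter in the table, 518 hold such letters. Of these, 37.8% pass the test below as higher in 1CT-A and 17.2% as lower, against 24.9% and 25.9% of the 8813 genes without them. Of the 26 genes with more than 1 match, E2F1 and RBL1 among them, 15 are higher and 2 are lower. The letters TTTGAA and TTTAAA, known as the cell cycle homology region through which the MuvB complex binds, are in 24.3% of all promoters. Among the members they occur once in E2F3 and 3 times in RBL2.

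To find which members differ between the cell lines, 1CT-A is compared with 1CT by edgeR's quasi-likelihood test on all genes with enough counts, with Benjamini-Hochberg adjustment over the 12514 genes tested. All 10 members pass the filter on low counts, E2F8 through its 1CT-A libraries. With a threshold of 0.05 on the adjusted p, 7 of the 10 rise in 1CT-A (E2F1, E2F2, E2F3, E2F4, E2F6, E2F8 and RBL1), where 25.0% of all genes tested rise. No member falls, against 26.0% of all genes tested, and 51.0% of all genes tested pass in either direction. An unadjusted p under 0.05 also gives 7 higher and 0 lower, and DESeq2 and limma-voom call 0 lower. The median log2 fold change of the members is 0.58, and that of all genes tested is -0.01. For these 7 members the CPM ranges of the cell lines are separate, each higher in 1CT-A, which is the case for 31.8% of all genes tested. A further 27.9% of all genes do not overlap and are lower, with no member among them. The study's thresholds are 2-fold and an unadjusted p under 0.01. With the p of edgeR they leave 3 rising members (E2F2, E2F8 and RBL1) beside 3.80% of all genes tested, and no falling member beside 9.60%. With a per-gene two-tailed test on log2(CPM + 1) in place of edgeR, for both the fold and the p, 1 member passes. The added 1 pulls folds toward 1, most at low CPM. The scale on which the study ran its two-tailed test is not given in the sources used here.

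**Figure D1:**
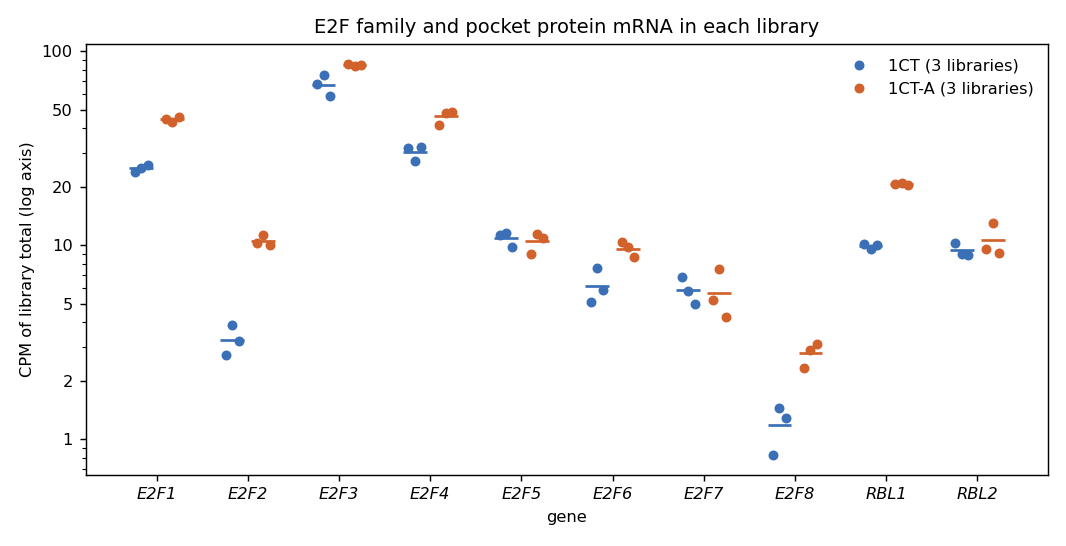
Level of each gene in every library, in CPM of the library total on a log axis; points are libraries (3 per cell line, blue 1CT, orange 1CT-A) and bars are means. E2F3 is at the top in both cell lines, with means of 67.1 and 85.0 CPM, and the points of E2F5, E2F7 and RBL2 overlap between the cell lines.

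Among the activators, all 3 rise in 1CT-A, E2F2 by the largest factor and E2F3 by the smallest. E2F1, on chromosome 20 from 33675477 to 33686385 (minus strand, GENCODE 44 on GRCh38), has 201, 208 and 203 counts in 1CT and 502, 490 and 577 in 1CT-A. In CPM, E2F1 reaches 25.0 ± 1.15 (SD, n = 3) in 1CT against 44.6 ± 1.43 in 1CT-A, and the cell lines lie far apart against this spread. E2F1 has a log2 fold change of 0.80 ± 0.09 (SE, edgeR adjusted p = 1.05e-05). E2F2, on chromosome 1 from 23506438 to 23531233, is a scarce transcript in 1CT with 23, 32 and 25 counts, and has 114, 128 and 126 counts in 1CT-A. In CPM this is 3.26 ± 0.57 (SD, n = 3) against 10.5 ± 0.66. Its log2 fold change of 1.64 ± 0.18 (SE, edgeR adjusted p = 9.6e-06) is a fold of 3.12, with a 95% interval of 2.37 to 4.11. It exceeds the change of 98.8% of all genes tested. E2F3, on chromosome 6 from 20401879 to 20493714, is the most abundant member. Its counts are 570, 623 and 457 in 1CT and 964, 954 and 1070 in 1CT-A, or 67.1 ± 8.28 CPM (SD, n = 3) and 85.0 ± 1.33 CPM. The 1CT libraries spread from 58.7 to 75.2 CPM and stay below the lowest 1CT-A library at 83.7 CPM. The log2 fold change of E2F3 is 0.30 ± 0.09 (SE, edgeR adjusted p = 0.0130), a fold of 1.23.

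Of the canonical repressors, E2F4 rises and E2F5 does not pass the test. E2F4, on chromosome 16 from 67192155 to 67198918, has 267, 226 and 251 counts in 1CT and 464, 550 and 611 in 1CT-A. This corresponds to 30.4 ± 2.69 CPM (SD, n = 3) and 46.1 ± 3.92 CPM, with all 1CT-A libraries above all 1CT libraries. E2F4 rises with a log2 fold change of 0.56 ± 0.10 (SE, edgeR adjusted p = 0.000452), a fold of 1.48. E2F5, on chromosome 8 from 85177154 to 85217158, has 95, 96 and 76 counts in 1CT and 101, 130 and 138 in 1CT-A. After division by the library totals the cell lines overlap, at 10.9 ± 0.97 CPM (SD, n = 3) and 10.5 ± 1.25 CPM. Its fitted fold is 0.938 with a 95% interval of 0.755 to 1.17 (edgeR adjusted p = 0.623). E2F5 shares 3111 bases at its 3′ side with RBIS (listed under its older symbol C8orf59) on the other strand. That gene has 311, 320 and 222 counts in 1CT and 363, 394 and 422 in 1CT-A, and without a stated strand setting the reads of both genes cannot be told apart.

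E2F6, on chromosome 2 from 11444375 to 11466177, has 43, 63 and 46 counts in 1CT and 116, 111 and 110 in 1CT-A. The 1CT libraries average 6.20 ± 1.29 CPM (SD, n = 3), where replicate 2 is highest at 7.61 CPM, and the 1CT-A libraries 9.62 ± 0.84 CPM, where the lowest library is at 8.73 CPM. The log2 fold change is 0.59 ± 0.18 (SE, edgeR adjusted p = 0.0139), a fold of 1.51. This call rests on single libraries, since the adjusted p is 0.0635 without 1CT replicate 1 (log2 fold change 0.46) and 0.0507 without 1CT-A replicate 1 (0.53). GENCODE lists 4 pseudogenes named after E2F6, 2 named after E2F3 and 1 named after E2F4. None of them is among the symbols of the files, so reads of near copies cannot be told apart from these 3 members.

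The atypical members part ways in these libraries. E2F8, on chromosome 11 from 19224063 to 19241620, is the least abundant member in both cell lines. It has 7, 12 and 10 counts in 1CT and 26, 33 and 39 in 1CT-A, which is 1.19 ± 0.32 CPM (SD, n = 3) against 2.77 ± 0.40 CPM. A count of 3, the limit that a count of 0 allows for counting error only, is 0.355 to 0.385 CPM in the 1CT libraries and 0.238 to 0.269 CPM in the 1CT-A libraries, and E2F8 lies above it in all 6. It passes the filter on low counts through the 1CT-A libraries, since 1CT replicate 1, at 0.828 CPM, is under the level required. The log2 fold change is 1.18 ± 0.31 (SE, edgeR adjusted p = 0.00668), and the fold of 2.27 has a wide 95% interval of 1.42 to 3.64. E2F7, on chromosome 12 from 77021248 to 77065569, has 58, 48 and 39 counts in 1CT and 58, 86 and 54 in 1CT-A. Its CPM are 5.89 ± 0.93 (SD, n = 3) and 5.68 ± 1.68, and the 1CT-A libraries, from 4.28 to 7.55 CPM, enclose all 1CT libraries. The fitted log2 fold change is -0.10 with a 95% interval of -0.60 to 0.40 (edgeR adjusted p = 0.741). The SD of E2F7 in 1CT-A is larger than the 0.70 CPM that counting alone gives at this depth.

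The pocket proteins also differ from each other. RBL1 (p107), on chromosome 20 from 36996349 to 37095997, has 86, 79 and 78 counts in 1CT and 232, 238 and 258 in 1CT-A. Its level rises with little spread, from 9.91 ± 0.33 CPM (SD, n = 3) to 20.7 ± 0.22 CPM. RBL1 has a log2 fold change of 1.02 ± 0.12 (SE, edgeR adjusted p = 1.3e-05), and the fold of 2.03 has a 95% interval of 1.70 to 2.43. RBL2 (p130), on chromosome 16 from 53433977 to 53491648, has 87, 75 and 69 counts in 1CT and 107, 149 and 115 in 1CT-A. In CPM it is at 9.40 ± 0.78 (SD, n = 3) and 10.6 ± 2.16, and the cell lines overlap, since 1CT-A replicates 1 and 3 at 9.59 and 9.12 CPM lie below 1CT replicate 1 at 10.3 CPM. The library of 1CT-A replicate 2, at 13.1 CPM, lies above every other. The fitted fold of RBL2 is 1.09 with a 95% interval of 0.851 to 1.41 (edgeR adjusted p = 0.543). AKTIP runs on the other strand and overlaps the 3′ end of RBL2 by 609 bases. It has 110, 91 and 88 counts in 1CT and 147, 161 and 174 in 1CT-A (log2 fold change 0.18, edgeR adjusted p = 0.267), and reads of the pair cannot be told apart without strand. Some members that rise also overlap genes in GENCODE. Among these are RPS3AP3 and RPS27AP3 for RBL1, E2F3-IT1 for E2F3 and CSRP3-AS1 for E2F8. Under these names none of them is among the symbols of the files.

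**Figure D2:**
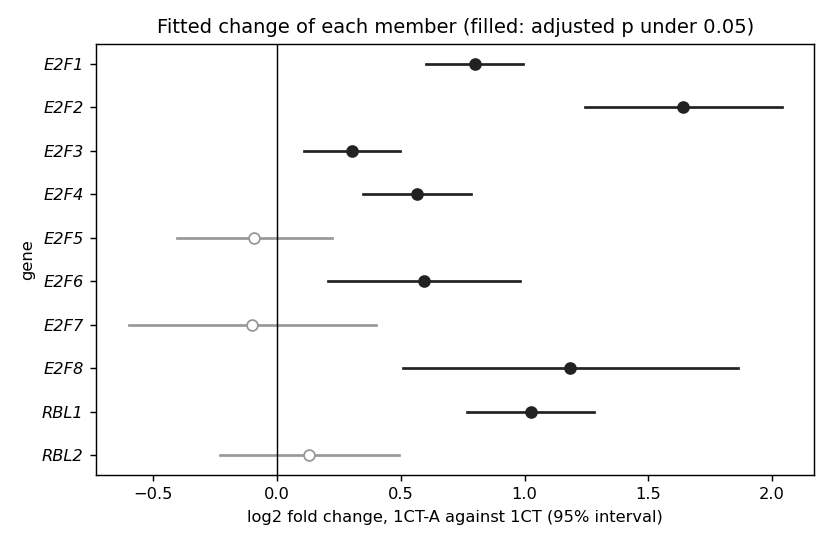
Fitted log2 fold change of each gene in 1CT-A against 1CT (x axis), with its 95% interval from edgeR's quasi-likelihood fit; filled points have an adjusted p under 0.05. The intervals of E2F5, E2F7 and RBL2 include 0, and that of E2F2 lies highest, from 1.24 to 2.04.

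For each of the 7 members that rise, an exact two-sided permutation test of the CPM of 3 libraries against 3 gives p = 0.1, the smallest p that this design allows, which cannot pass 0.05. The same exact permutation test gives p = 0.6 for E2F5, 0.9 for E2F7 and 0.5 for RBL2. The other genes of the same chromosomes are given for the 7 members that rise. E2F1 and RBL1 both lie on chromosome 20, where the median log2 fold change of the other 215 protein-coding genes averaging 10 CPM or more is -0.02. The corresponding median is 0.07 over the 770 such genes of chromosome 1, which holds E2F2, and 0.06 over the 7553 of all chromosomes. It is 0.10 on chromosome 6 (E2F3), 0.12 on chromosome 2 (E2F6), 0.04 on chromosome 11 (E2F8) and -0.01 on chromosome 16 (E2F4). Within 10 Mb of E2F6, 45.7% of the 35 such genes are higher, against 31.6% over all chromosomes. This is the highest share of the members. Around the other members that rise it runs from 20.5% (E2F4) to 39.0% (E2F8), and around E2F7, which is not called, it is 41.7%.

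The order of the levels is nearly the same in both cell lines at the top and changes in the middle. In 1CT it runs E2F3, E2F4, E2F1, E2F5, RBL1, RBL2, E2F6, E2F7, E2F2 and E2F8. The libraries of E2F5 and RBL1, of RBL1 and RBL2, and of E2F6 and E2F7 overlap, so these neighbours do not differ beyond their spread. In 1CT-A the order is E2F3, E2F4, E2F1, RBL1, RBL2, E2F2, E2F5, E2F6, E2F7 and E2F8. There E2F4 and E2F1 overlap, at 46.1 and 44.6 CPM, and RBL2 overlaps with E2F2, E2F2 with E2F5 and E2F5 with E2F6, with means from 9.62 to 10.6 CPM. RBL1 stands apart from its neighbours in 1CT-A and not in 1CT. E2F2 moves from the ninth place to the sixth.

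Summed over the family, the 10 genes take 161 to 177 CPM in the 1CT libraries and 241 to 252 CPM in the 1CT-A libraries. The activators E2F1 to E2F3 together are at 95.4 ± 8.22 CPM (SD, n = 3) and 140 ± 1.88 CPM, and the repressors E2F4 and E2F5 at 41.2 ± 2.08 CPM and 56.6 ± 5.15 CPM. As a share of all E2F counts, the activators hold 63.6% ± 2.15 (SD, n = 3) in 1CT and 65.3% ± 2.03 in 1CT-A, and E2F4 with E2F5 hold 27.6% ± 2.62 and 26.3% ± 1.93. Both differences are smaller than the spread between libraries. Within the activators the shares shift, with E2F2 at 2.17% ± 0.32 (SD, n = 3) of all E2F counts in 1CT and 4.88% ± 0.27 in 1CT-A, E2F1 at 16.7% ± 1.41 and 20.8% ± 0.90, and E2F3 at 44.7% ± 3.19 and 39.6% ± 1.37.

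Ratios within a library do not depend on its depth or scaling, and they are given for pairs picked with their values known. RBL1 has 0.989, 1.05 and 1.13 counts per count of RBL2 in the 1CT libraries and 2.17, 1.60 and 2.24 in the 1CT-A libraries. The log2 fold change of RBL1 exceeds that of RBL2 by 0.89, with a 95% interval of 0.45 to 1.34 that treats the errors of both genes as independent. E2F2 has 0.0404, 0.0514 and 0.0547 counts per count of E2F3 in 1CT and 0.118, 0.134 and 0.118 in 1CT-A, and the difference of their log2 fold changes is 1.34 (0.90 to 1.78). For E2F8 against E2F7 the ratios are 0.121, 0.250 and 0.256 in 1CT and 0.448, 0.384 and 0.722 in 1CT-A, with a difference of 1.28 (0.44 to 2.13). E2F4 has 2.35 to 3.30 counts per count of E2F5 in 1CT and 4.23 to 4.59 in 1CT-A, a difference of 0.66 (0.27 to 1.04). The ratios of E2F1 to E2F4 overlap, at 0.753 to 0.920 in 1CT and 0.891 to 1.08 in 1CT-A, and the interval of the difference, -0.06 to 0.53, includes 0.

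**Figure D3:**
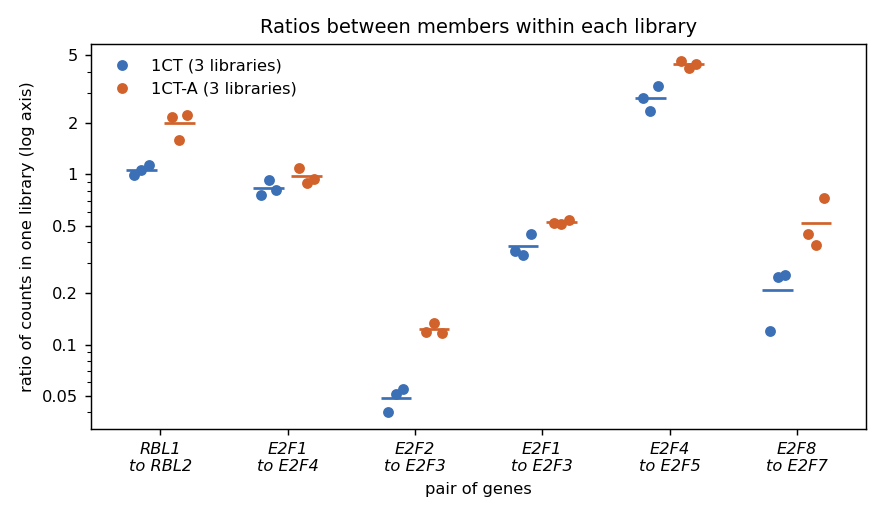
Ratio of the counts of a pair of genes within each library (log axis), for 6 pairs and 3 libraries per cell line (blue 1CT, orange 1CT-A), with bars at the mean. The ratio of RBL1 to RBL2 has a mean of 1.06 in 1CT and 2.00 in 1CT-A, and the ratio of E2F1 to E2F4 overlaps between the cell lines.

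The genes that work with the E2F family are described through lists, by counts and medians. DP proteins pair with E2F1 to E2F6 for DNA binding. TFDP1 is at 49.4 CPM in 1CT and 74.2 CPM in 1CT-A, with a log2 fold change of 0.55 (edgeR adjusted p = 0.000130). TFDP2 has a log2 fold change of -0.08 (edgeR adjusted p = 0.571), and TFDP3 has no count in any library. The MuvB core forms the DREAM complex with E2F4 or E2F5 and RBL1 or RBL2, and binds MYBL2 and FOXM1 in dividing cells. Of the 9 genes listed, 5 are higher in 1CT-A (25.0% of all genes tested) and none is lower (26.0% of all genes tested), also at an unadjusted p under 0.05 or in DESeq2, with a median log2 fold change of 0.69. LIN54, its DNA-binding subunit, has a log2 fold change of 0.98 (edgeR adjusted p = 0.000496). FOXM1, the activator of mitotic genes, goes from 77.1 to 143 CPM with 0.85 (edgeR adjusted p = 2.5e-06). MYBL2, LIN9 and LIN52 are the other genes called, and RBBP4, MYBL1, LIN37 and DYRK1A, which phosphorylates LIN52, do not pass the test.

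The cyclins, kinases and inhibitors that set the phosphorylation of pocket proteins move in opposite directions. Of 15 genes listed, 14 are tested, of which 9 rise and 5 fall in 1CT-A, beside 25.0% and 26.0% of all genes tested. CCND2 has a log2 fold change of 1.92 (edgeR adjusted p = 3.2e-09) and goes from 53.6 to 208 CPM, and CCNA2, the S phase cyclin, has 1.22 (edgeR adjusted p = 3.4e-07). CCND1 falls with -1.96 (edgeR adjusted p = 2.6e-09) and CDKN1A, an inhibitor of CDK2, with -1.23 (edgeR adjusted p = 6.1e-08). CDKN1A is the only tested inhibitor that falls. CDKN1B, CDKN2B, CDKN2C and CDKN2D rise with 0.66, 0.36, 0.99 and 0.52 (edgeR adjusted p of at most 0.0197). Of the kinases, CDK2 rises with 0.70 (edgeR adjusted p = 3.4e-06) and CDK6 falls with -1.02 (edgeR adjusted p = 8.7e-06). CDK4, named here because it was introduced into these cells, is at 40.0 CPM in 1CT and 81.5 CPM in 1CT-A, and whether its counts include the introduced copy is not given in the sources used here. Of the 4 ubiquitin ligase subunits known to act on E2F and pocket proteins, 3 are higher (25.0% of all genes tested), SKP2 with 0.96, CCNF with 0.88 and CDC20 with 0.96 on the log2 scale (edgeR adjusted p of at most 1.31e-05). FZR1, which targets E2F7 and E2F8 among others, has 0.13 (edgeR adjusted p = 0.356).

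Among corepressors recruited by pocket proteins or atypical E2Fs, 4 of 9 genes are higher and 3 are lower, beside 25.0% and 26.0% of all genes tested, with a median log2 fold change of 0.18. The number of higher genes is 3 in DESeq2. HDAC2, a histone deacetylase, is higher by 0.55 and CTBP1 by 0.52 on the log2 scale (edgeR adjusted p = 0.00121 and 7.6e-05). The log2 fold changes of ARID4A and SIN3B, which link pocket proteins and repressors to histone deacetylases, are -0.77 and -0.46 (edgeR adjusted p = 2.2e-05 and 0.000652). In the complex of E2F6, 4 of 10 genes are higher (25.0% of all genes tested) and none is lower (26.0% of all genes tested), also at an unadjusted p under 0.05 and in DESeq2. CBX3, a chromodomain protein, has a log2 fold change of 0.66 (edgeR adjusted p = 4.1e-06) and WDR5 of 0.58 (edgeR adjusted p = 2.3e-05), and the median of the list is 0.17. With a library left out the number of higher genes in this complex is 2 to 3, close to the share over all genes, and it is 2 without 1CT-A replicate 2.

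**Figure D4:**
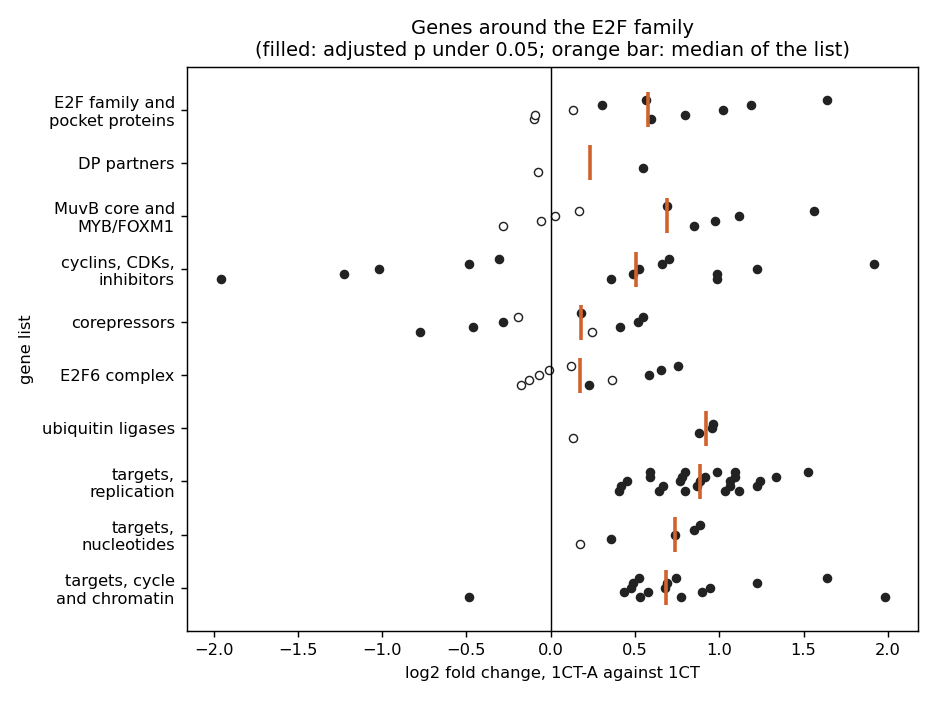
Fitted log2 fold change in 1CT-A relative to 1CT (x axis) for each tested gene of 10 lists (y axis); filled points have an adjusted p under 0.05 and the orange bars are list medians. The target genes lie to the right of 0 apart from CCNE1 at -0.48, and the cyclins, kinases and inhibitors spread from -1.96 to 1.92.

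Genes known as E2F targets are read from 3 lists of 46 different genes, all of which are tested. The lists were written with earlier results of these data known, so their counts only describe these libraries. CCNA2, CCNE1 and CCNE2 are also in the list of cyclins, kinases and inhibitors, and MYBL2 is also in the MuvB list. Of the 46 genes, 44 are higher in 1CT-A and 1 is lower, with a median log2 fold change of 0.79. Of all genes tested, 25.0% are higher and 26.0% are lower. In the 25 replication genes all are higher, from CDC6 at 0.41 to MCM2 at 1.52. The number is 24 in DESeq2, 23 at an adjusted p under 0.01, and 24 to 25 with a library left out. It is also 24 with at least 10 counts in every library, where PRIM1, with 10, 11 and 7 counts in 1CT, is not tested. MCM2, a subunit of the replicative helicase, goes from 35.6 to 105 CPM (edgeR adjusted p = 1.5e-08) and PCNA, the sliding clamp, from 47.5 to 114 CPM with a log2 fold change of 1.22 (edgeR adjusted p = 2.8e-07). In nucleotide supply, RRM1 (0.74), RRM2 (0.89) and TYMS (0.85) are higher on the log2 scale, with an edgeR adjusted p of at most 6.75e-06, and TK1 has 0.18 (edgeR adjusted p = 0.0977). Of the 16 genes of cell cycle control and chromatin, 15 are higher. CDCA7, a chromatin factor, is at 11.7 CPM in 1CT and 47.6 CPM in 1CT-A with a log2 fold change of 1.98 (edgeR adjusted p = 1.3e-07), and UHRF1, which guides maintenance of DNA methylation, has 1.64 (edgeR adjusted p = 3.0e-08). CCNE1 is the target that is lower, with -0.48 (edgeR adjusted p = 0.00891). CCNE2, its paralog, is higher with 0.49 (edgeR adjusted p = 0.0164). The E2F target letters are in the promoters of 24 of the 40 list genes that have an entry in the RefSeq table. They are in 5.55% of the promoters of all 9331 genes tested that have an entry.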

How the data were processed

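Bulk RNA-seq libraries of 1CT and 1CT-A cells were compared, 3 of each. The authors deposited raw counts of reads per gene symbol, 1 file per library, without normalization or pooling. Per the labels, QuantSeq libraries were made and Bowtie2, edgeR and hg19 appear in the submitters' processing notes without a role or version. The counting tool, annotation, strand setting and filters are not given in the sources used here. Counts of the 286 symbols entered repeatedly were added together, which concerns no member. Promoters come from RefSeq on GRCh38.p14 and gene positions from GENCODE 44 on GRCh38, and neither was used for counting. The fit used edgeR 4.0.16 (R 4.3.3) with TMM factors of 0.976 to 1.02, a filterByExpr minimum of 10 counts, quasi-likelihood tests with cell line as the only term, and Benjamini-Hochberg adjustment across the 12514 genes left. It was tested on simulated data with changes placed in a small part of the genes, all of them well counted. This does not cover E2F8, the least counted member. CPM are counts per 1000000 counts of the file total without TMM. Standard errors are the absolute log2 fold change divided by the square root of F. The members and lists were chosen with earlier results of these data known. Named genes are the members, APC, every gene of lists of up to 5 genes, and in the longer lists the 2 largest rises and 2 largest falls past an adjusted p of 0.05 with a mean of at least 10 CPM. For the member that rises with the smallest p, the 3 genes of highest correlation are also named. Other names were added after values were seen, and 1 gene that the rule names is not reported here. Alternatives were DESeq2 1.42.0 and its size factors, library size only, both filters, limma-voom (limma 3.58.1), a replicate block and an adjusted p of 0.01. Others were a per-gene two-tailed test with its fold on log2(CPM + 1), each library left out and, added after seeing the data, upper-quartile normalization.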

Additional observations from a re-analysis of the deposited data

How the results depend on the processing

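Of the members called higher, 7 remain called with DESeq2's size factors, library size only, no filter, DESeq2, limma-voom and upper-quartile normalization. The number is 6 with at least 10 counts in every library, where E2F8 is not tested, 5 at an adjusted p under 0.01, and 6 to 7 with a library left out. No member is lower in any of them. When the replicate number is fitted as a block, 7 members are called (E2F6 with an adjusted p of 0.0196), as are 2993 higher and 3098 lower genes of all tested, against 3131 and 3257 without it. The deviations of same-numbered libraries have correlations of -0.161, 0.220 and -0.139 over 8224 genes. These lie within the range of -0.290 to 0.345 of differently numbered libraries. So few libraries give no sign of a pairing by number and cannot exclude one. The block changed no call of a member. At the study's thresholds the 3 members become 1 when fold and p come from a per-gene two-tailed test on log2(CPM + 1). They are 2 to 3 with a library left out. The 4 genes of the E2F6 complex become 2 at an adjusted p under 0.01, and 2 to 3 with a library left out. With a library left out, the uncalled members change sign, E2F5 between -0.15 and 0.00022, E2F7 between -0.35 and 0.080 (0.02 without 1CT replicate 1) and RBL2 between -0.038 and 0.24 on the log2 scale. The cause was not tested. E2F6 is between 0.46 and 0.77. For E2F8, the least counted member, with 7 to 12 counts in the 1CT libraries, the range is 0.98 to 1.36.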

Other observations

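E2F2 is the member that rises with the smallest p. Among the 8224 other genes averaging 10 CPM or more, CLCC1, TMEM51 and RLF have the profiles most like that of E2F2 over the 6 libraries, with Pearson's r of log2(CPM + 1) of 0.9993, 0.9988 and 0.9985. These values describe 6 points in 2 groups, which share the difference between the cell lines and its depth. With the mean of each cell line removed, r is 0.973, 0.976 and 0.944. The genes were picked by their r over these same libraries, so these values are no separate evidence of shared variation. The SD of E2F2 within each cell line, 0.57 and 0.66 CPM, is below the 0.63 and 0.95 CPM that counting alone would give. The log2 fold changes of the 3 genes are 0.88, 0.54 and 0.34, smaller than that of E2F2, and all 3 lie on chromosome 1 as E2F2 does. Of the 7553 protein-coding genes averaging 10 CPM or more, 770 lie on chromosome 1. There 33.6% are higher, against 31.6% over all chromosomes. A link through the chromosome was not tested.

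The spread between libraries differs from member to member. RBL1 has an SD of 0.33 CPM in 1CT and 0.22 CPM in 1CT-A, below the 1.10 and 1.33 CPM that counting alone would give. E2F3 in 1CT has an SD of 8.28 CPM where counting gives 2.86 CPM, and RBL2 in 1CT-A has 2.16 CPM where counting gives 0.95 CPM.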
